A study of Mus musculus with 4 samples.

Results

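The inhibitor of apoptosis (IAP) family and its natural antagonists were described across 4 arrays of mouse embryonic fibroblasts. The genes were Xiap, Birc2, Birc3, Birc5 and Birc6 on the inhibitor side and Diablo and Htra2 on the antagonist side. A probe set, the group of short oligonucleotides that reports 1 transcript on the array, was taken when the platform annotation gave it exactly 1 gene symbol and that symbol was among these. All 7 genes were on the array, of 8251 genes in all, with 11 probe sets of 10833 that carry a single symbol. Xiap had 3 probe sets, Birc2 and Htra2 had 2 each, and the other genes had 1.

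IAP proteins share a zinc-binding fold, the BIR domain, through which they bind other proteins. XIAP binds and inhibits the caspases that dismantle a dying cell. cIAP1 (Birc2) and cIAP2 (Birc3) are ubiquitin ligases that join the TNF receptor complex through TRAF2, where they promote NF-kB signalling, and they also keep the alternative NF-kB pathway low by marking its kinase NIK for degradation. Survivin (Birc5) serves mainly in cell division, as a subunit of the chromosomal passenger complex, and BRUCE (Birc6) is a giant protein that joins ubiquitin to its targets. DIABLO (Smac) and HTRA2 (Omi) are mitochondrial proteins that, once released to the cytosol, bind BIR domains and displace caspases. Birc3 is a textbook target gene of NF-kB.

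The cells were fibroblasts of XIAP knockout mice, exposed to 20 ng/ml TNFa for 4 hours or unstimulated, and fibroblasts of wild-type mice under the same 2 conditions. Each of the 4 combinations was a confluent culture measured on 1 Affymetrix U74Av2 array, so there are no replicates, and having 4 arrays in all limits how precise any value can be. The strain and sex of the mice, how the Xiap gene was disrupted, and whether the cultures were primary cells or lines are not stated in the labels. All cultures shared the same serum-containing medium and passaging. Signals are the authors' MAS5 intensities on a linear scale. A signal floor was set at 92.5, the 40th percentile of all non-control signals, and lower signals were raised to it before log2 ratios were taken. A probe set was called measured where 1 or more of the arrays compared exceeded the floor.

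Between 7115 and 7678 of 12422 non-control probe sets were above the floor per array, the fewest in TNF-treated wild-type cells, whose median signal of 151 compared with 173 to 183 on the other arrays. Of 10 fibroblast markers, 9 were above the floor on all arrays, with Col1a1 at 21982 to 25902, and the probe set of Vim was near or below it at 42.1 to 94.5. Of these 10 markers, 2 were lower in the knockout in the limma fit described with the Xiap values. Among all measured probe sets 9.19% were lower and 10.2% higher in the knockout in that fit. Thy1, a surface marker of fibroblasts, had signals of 219.4 and 308.5 in TNF-treated and unstimulated knockout cells, against 1384.1 and 1120.4 in the corresponding wild-type cells (log2 effect -2.26, SE 0.22, adjusted p = 0.00171). Pdgfrb, a growth factor receptor gene, had an effect of -0.79 (SE 0.15, adjusted p = 0.0162). The pan-leukocyte marker Ptprc was at 4.5 to 9.2, and 3 of 5 endothelial and 4 of 5 epithelial markers were below the floor on every array. Above it on every array were 3 of 7 macrophage or leukocyte markers, Cd68, Csf1r and Cd14 (1534 to 2402), and the epithelial Cdh1 (297 to 531). Xist and Eif2s3y, picked after their values were seen, also separated the cultures. Xist had signals of 1601 and 1232 in TNF-treated and unstimulated knockout cells, against 5.4 and 34.3 in the corresponding wild-type cells, and the Y-linked Eif2s3y had 9.1 and 2.8 in the knockout cells, against 308 and 489 in the wild-type cells. Other differences between the cultures and the Xiap genotype cannot be told apart in the comparisons of knockout with wild-type cells.

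Promoter windows were read for Birc3 and Birc2, the members with the highest TNF effects, and for Birc5, the only one of these 3 with a match to the NF-kB consensus. The Birc2 window is that of 1 of its 2 listed start sites. Each covers 250 bases before to 50 after an annotated RefSeq start site of build GRCm38.p6, written 5′ to 3′ on the gene's strand, with consensus matches in capitals. Birc2 and Birc3 are neighbouring genes on mouse chromosome 9.
Birc3 (chr9:7873121-7873420, minus strand): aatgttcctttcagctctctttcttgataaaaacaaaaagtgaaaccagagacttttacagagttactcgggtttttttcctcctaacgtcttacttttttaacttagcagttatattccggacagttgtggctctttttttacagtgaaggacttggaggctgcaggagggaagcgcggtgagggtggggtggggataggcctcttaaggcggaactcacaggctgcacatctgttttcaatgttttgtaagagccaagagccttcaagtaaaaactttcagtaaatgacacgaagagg
Birc2 (chr9:7837008-7837307, minus strand): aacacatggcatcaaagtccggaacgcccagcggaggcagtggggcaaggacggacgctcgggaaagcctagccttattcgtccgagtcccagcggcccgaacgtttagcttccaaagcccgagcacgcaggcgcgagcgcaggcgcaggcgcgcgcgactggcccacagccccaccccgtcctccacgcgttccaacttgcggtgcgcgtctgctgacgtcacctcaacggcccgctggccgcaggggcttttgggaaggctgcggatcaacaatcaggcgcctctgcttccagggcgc
Birc5 (chr11:117848987-117849286, plus strand): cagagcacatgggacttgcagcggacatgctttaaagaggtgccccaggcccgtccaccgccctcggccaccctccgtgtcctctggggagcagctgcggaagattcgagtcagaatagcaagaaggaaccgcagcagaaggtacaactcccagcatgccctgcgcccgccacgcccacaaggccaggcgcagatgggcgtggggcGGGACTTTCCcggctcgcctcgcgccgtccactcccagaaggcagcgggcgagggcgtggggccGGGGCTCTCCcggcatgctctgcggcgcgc
Windows were listed for 6 of the 7 genes, 9 windows in all. On either strand the NF-kB consensus occurred in 2 of these 9 and in 8.46% of all 32851 windows of the same length. The matches were GGGACTTTCC at -44 and GGGGCTCTCC at 21 of Birc5, counted from the first transcribed base as 1, and GGGACCCTCC at 23 of one of 3 Xiap start sites. The windows of Birc2 and Birc3 did not hold these letters, which says nothing about other parts of these genes, and a match is a description of sequence and not a bound site.

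Xiap, the gene disrupted in the knockout and located on the X chromosome, was dim in both genotypes. The brightest of its probe sets, 93402_i_at, had signals of 120.1 in TNF-treated and 180.5 in unstimulated knockout cells, and of 125.7 in TNF-treated and 239.0 in unstimulated wild-type cells. The second, 93400_at, had 51.0 and 93.4 in the knockout cells and 57.6 and 114.8 in the wild-type cells, in the same order, and the third, 93401_g_at, stayed below the floor on every array at 40.4 and 63.6 in the knockout and 27.7 and 61.5 in the wild-type cells. Signals of the knockout arrays were thus close to those of the wild-type arrays in the same treatment state, with unstimulated wild-type cells the highest for the first 2 probe sets. Whether the probe sets lie in the disrupted part of the gene is unknown, so they do not check the genotype labels.

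All 3 Xiap probe sets were dimmer on the TNF-treated array than on the unstimulated one in both genotypes. Only 93402_i_at was above the floor on all 4 arrays, and whether the 3 are independent of each other was not tested. For 93402_i_at the log2 ratio of TNF-treated to unstimulated cells was -0.59 in knockout and -0.93 in wild-type cells, short of 2-fold in both. These values lay at percentiles 3.10 and 3.66 of all measured probe sets. An additive model with TNF and genotype was fitted across all 8228 measured probe sets with limma, using the 2 pairs of arrays. It gave a TNF effect of -0.76 on the log2 scale (SE 0.21), which did not pass at an adjusted p of 0.214 after Benjamini-Hochberg adjustment, and 0.121 to 0.435 under the alternatives. Dim probe sets had a lower median ratio with TNF in general. In the fifth of mean signal that holds 93402_i_at the median log2 ratio was -0.08 in knockout and -0.26 in wild-type cells. The part of this shift in the Xiap values was not tested. The knockout effect on 93402_i_at was -0.24 (SE 0.21, limma adjusted p = 0.499).

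Birc3, which encodes the ubiquitin ligase cIAP2, was the member with the largest TNF response in both genotypes. Probe set 160645_at had a signal of 342.4 in TNF-treated and 52.6 in unstimulated knockout cells, and of 429.5 in TNF-treated and 80.2 in unstimulated wild-type cells. Both TNF arrays were above the floor and both unstimulated arrays below it. Birc3 was therefore at least 3.70-fold higher with TNF in knockout and at least 4.64-fold higher in wild-type cells, at percentiles 99.4 and 99.4 of all measured probe sets. Birc3 rose with TNF in the additive limma fit, with a log2 effect of 2.05 and an SE of 0.22 (adjusted p = 0.0122), and was higher in both pairs of arrays. It was the only 1 of 9 measured member probe sets to pass. Among all measured probe sets 1.08% rose and 0.0851% fell in this fit, and 1126 of 8228 had an unadjusted p below 0.05. The call was lost without the intensity trend in the variance prior (adjusted p = 0.0570). The p-values of this fit have no replicate cultures behind them, since its 1 residual degree of freedom per probe set is the genotype-by-TNF difference.

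The Birc3 response did not separate the genotypes in these arrays. With TNF its signal was lower in knockout cells by a log2 ratio of -0.33, and the difference of response was -0.33 on floored signals, against 0.28 with no floor, so its direction is set by the treatment of the dim unstimulated arrays. The knockout effect over both treatments was -0.16 (SE 0.22, limma adjusted p = 0.665). The floor made both unstimulated signals equal, so only the TNF-treated arrays enter this effect. Under the alternatives it ran from -0.47 to -0.16.

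Birc2, which encodes cIAP1, had a smaller TNF response. Probe set 102734_at had a signal of 506.4 in TNF-treated and 266.5 in unstimulated knockout cells, and of 485.3 in TNF-treated and 223.2 in unstimulated wild-type cells. In each genotype the treated array lay above the unstimulated one. The ratio was 1.90-fold in knockout cells, under the 2-fold mark, and 2.17-fold in wild-type cells, percentiles 98.2 and 97.8 of all measured probe sets. The additive TNF effect was 1.02 on the log2 scale (SE 0.21), which missed the threshold at a limma adjusted p of 0.0967. It passed under quantile normalization (adjusted p = 0.0400) and under equal medians (5.15e-05), and reached 0.151 at the other end of the alternatives. With equal medians the prior degrees of freedom of the fit were infinite, so the probe set's own spread did not enter that p-value. Equal medians also shift the wild-type TNF ratio by 0.28. The difference of response between genotypes was -0.19, and the knockout effect was 0.16 (SE 0.21, limma adjusted p = 0.647).

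The other Birc2 probe set, 161883_f_at, was near the floor and did not show this response. Its signals were 102.3 in TNF-treated and 91.3 in unstimulated knockout cells, and 51.1 in TNF-treated and 76.6 in unstimulated wild-type cells. Its suffix marks a probe set that can hybridise to a family of related sequences. The additive TNF effect was 0.07 (SE 0.16, limma adjusted p = 0.860), with only 1 array above the floor. The Birc2 response therefore rests on 1 probe set.

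**Figure D1:**
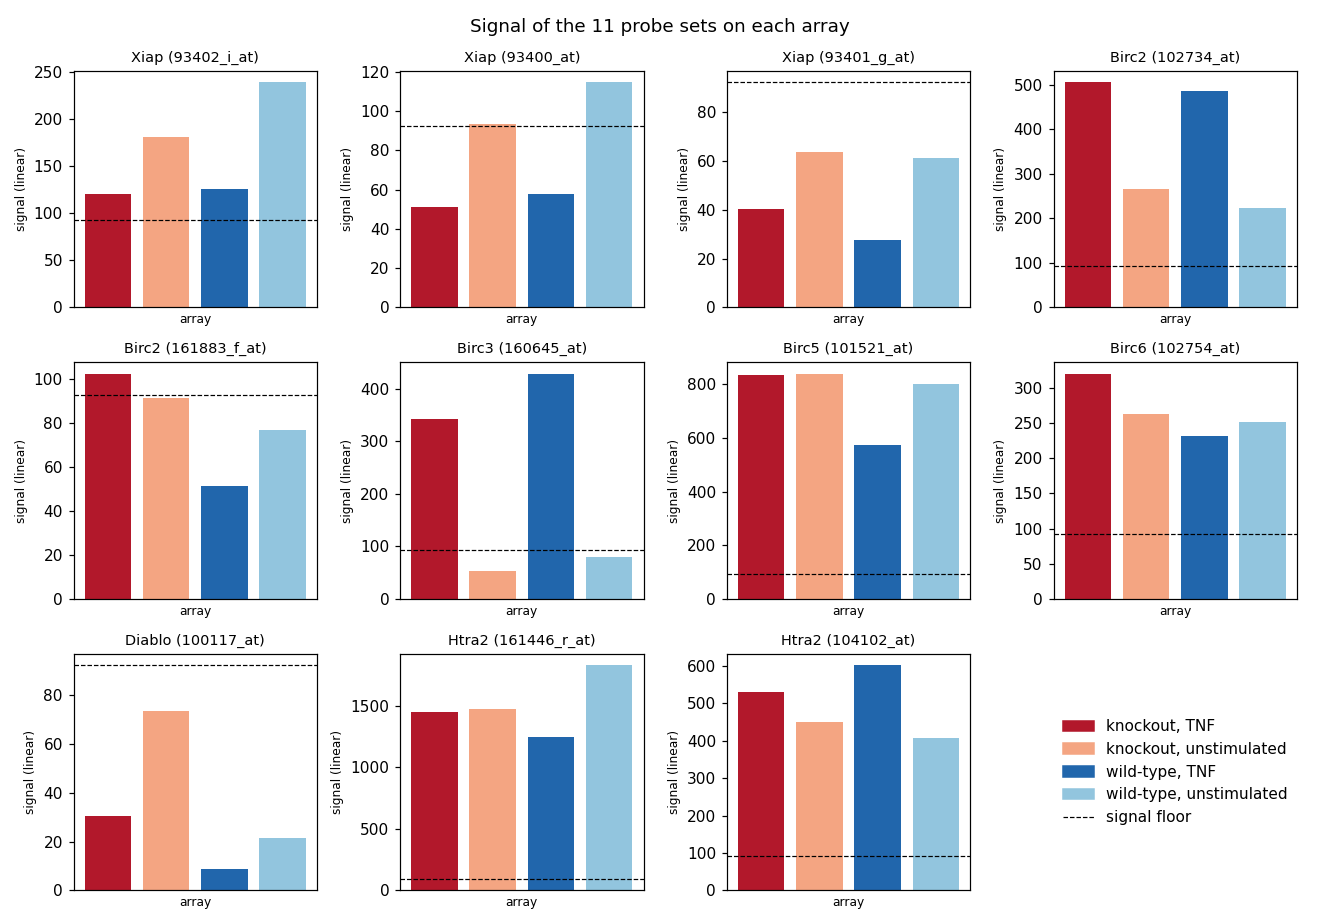
MAS5 signal (linear scale, 1 bar per array) of each of the 11 probe sets, with its own vertical axis from 0 and the signal floor of 92.5 as a dashed line. Birc3 and Birc2 (102734_at) are high on both TNF arrays, all 3 Xiap probe sets are lower on the TNF arrays, and Diablo and 93401_g_at of Xiap lie below the floor on every array.

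Birc5, which encodes survivin, was well above the floor and nearly level on 3 of the 4 arrays. Its probe set 101521_at had a signal of 834.0 in TNF-treated and 840.4 in unstimulated knockout cells, and of 575.2 in TNF-treated and 801.8 in unstimulated wild-type cells. Only TNF-treated wild-type cells stood apart. The log2 ratio of TNF-treated to unstimulated cells was -0.01 in knockout and -0.48 in wild-type cells (-0.20 with equal medians), and the additive TNF effect was -0.25 (SE 0.17, limma adjusted p = 0.534). The knockout effect was 0.30 (SE 0.17, limma adjusted p = 0.264), where 10.2% of all measured probe sets rose and 9.19% fell.

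Genes of a mitotic list, which includes partners of survivin in its complex, were higher in the knockout cells. In the limma fit 14 of 15 measured mitotic genes rose in knockout cells, where 10.2% of all measured probe sets rose. The median log2 effect of the list was 0.97, beside 0.02 over all measured probe sets. Without the intensity trend 11 passed, and 12 to 14 did under the other alternatives, with all 15 effects above 0 in each. The list takes the brightest probe set per gene and was drawn up with earlier results of these arrays known, as were the other lists. The largest effects were those of the topoisomerase gene Top2a (1.74, SE 0.20, adjusted p = 0.00265), the proliferation marker Mki67 (1.67), the spindle motor gene Kif11 (1.63) and the mitotic kinase gene Cdk1 (1.09). Aurkb, Incenp and Cdca8, which encode the other subunits of the chromosomal passenger complex and were singled out after their values were seen, rose by 1.02, 0.85 and 0.91. The Cdca8 call was lost without the intensity trend (adjusted p = 0.0594). Aurkb had a signal of 511.1 in TNF-treated and 501.6 in unstimulated knockout cells, against 259.5 and 241.1 in the corresponding wild-type cells.

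The Birc5 effect of 0.30 was below that of every one of these 15 genes, the lowest of which was Cenpa, a centromeric histone gene, at 0.57. This also held in unstimulated cells, where Birc5 differed by 0.07 and the 15 genes by 0.41 to 2.04. Under the alternatives Birc5 gave 0.22 to 0.31 and the lowest of the mitotic genes 0.47 to 0.57. The difference between Birc5 and the list was not tested. In bulk RNA, more cells in division in the knockout cultures and more of these transcripts per cell cannot be told apart. No mitotic gene passed the test for TNF, and the list's median TNF effect was -0.07, beside -0.08 over all measured probe sets.

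**Figure D2:**
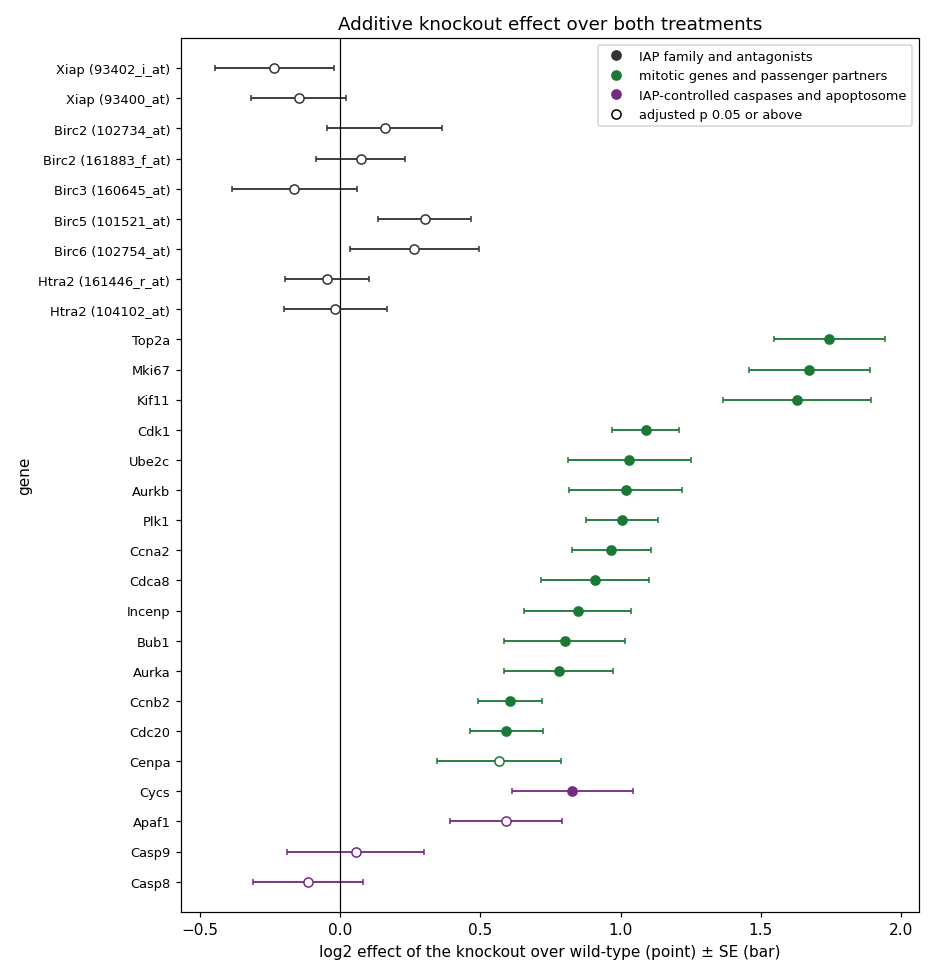
Additive knockout effect over both treatments (log2, horizontal axis) with its SE for the measured IAP and antagonist probe sets, the mitotic genes and the caspase and apoptosome genes. Filled points passed an adjusted p of 0.05, and Birc5 at 0.30 lies left of all 15 mitotic genes.

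Birc6, which encodes BRUCE, changed little. Probe set 102754_at had a signal of 320.2 in TNF-treated and 262.2 in unstimulated knockout cells, and of 231.6 in TNF-treated and 251.3 in unstimulated wild-type cells. The highest and the lowest signal were both from TNF-treated cells. The log2 ratio with TNF was 0.29 in knockout and -0.12 in wild-type cells, and the wild-type value was positive under quantile normalization (0.07) and equal medians (0.16). Neither the TNF effect (0.09, SE 0.23, limma adjusted p = 0.892) nor the knockout effect (0.26, SE 0.23, adjusted p = 0.483) passed.

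The antagonist gene Diablo was not measured, since its probe set 100117_at was below the floor on every array. Its signals were 30.7 in TNF-treated and 73.7 in unstimulated knockout cells, and 8.9 in TNF-treated and 21.7 in unstimulated wild-type cells. No fold is given for it.

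The antagonist gene Htra2, which encodes a mitochondrial serine protease, was bright, and its probe sets disagreed. Probe set 161446_r_at had a signal of 1450 in TNF-treated and 1475 in unstimulated knockout cells, and of 1249 in TNF-treated and 1829 in unstimulated wild-type cells. Probe set 104102_at had 530.2 in TNF-treated and 450.9 in unstimulated knockout cells, and 602.0 in TNF-treated and 407.1 in unstimulated wild-type cells. The unstimulated wild-type array was thus the highest for one probe set and the lowest for the other. In wild-type cells the log2 ratios with TNF were -0.55 and 0.56 (-0.27 and 0.84 with equal medians), and in knockout cells -0.02 and 0.23. The additive TNF effects were -0.29 (SE 0.15, limma adjusted p = 0.439) and 0.40 (SE 0.18, adjusted p = 0.399). The suffix of 161446_r_at marks relaxed rules of probe selection, and which of them follows the transcript was not tested. Both knockout effects were close to 0, at -0.05 (SE 0.15) and -0.02 (SE 0.18).

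**Figure D3:**
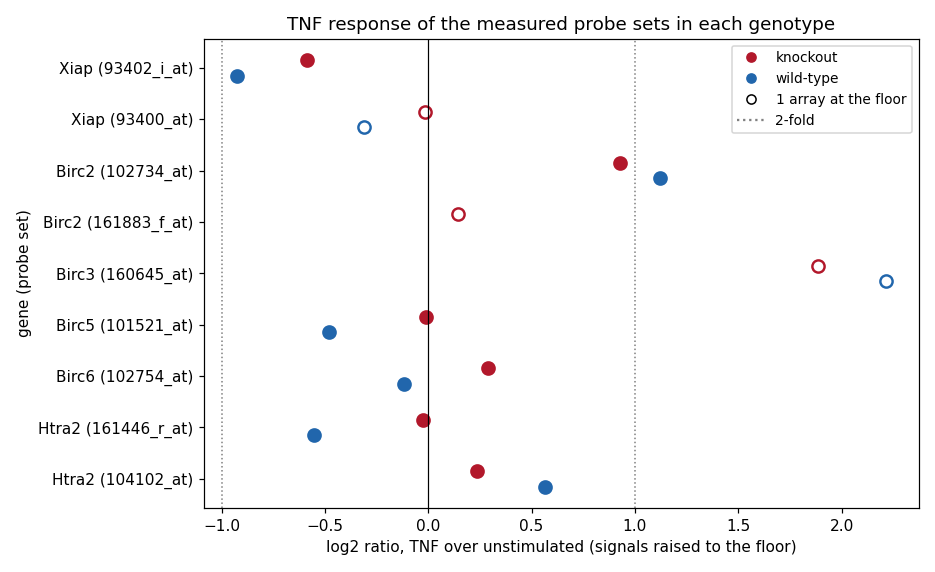
Log2 ratio of TNF-treated over unstimulated cells on floored signals (horizontal axis) for each measured probe set, with knockout in red and wild-type in blue. Open points have 1 array at the floor, dotted lines mark 2-fold, and Birc3 and the wild-type value of Birc2 (102734_at, 1.12) lie beyond them.

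Counted over probe sets, few members passed 2-fold with TNF and none differed 2-fold between genotypes. In knockout cells 1 of 9 measured probe sets, that of Birc3, was at least 2-fold higher with TNF and none lower, where 1.57% of all measured probe sets were higher and 0.399% lower. In wild-type cells 2 of 8, those of Birc3 and Birc2, were higher and none lower, against a background of 2.54% higher and 2.79% lower. That background depends on the scaling, because the TNF-treated wild-type array has a lower median. Equal medians shift the wild-type TNF ratio by 0.28 and the TNF-state ratio of knockout to wild-type by -0.20 on the log2 scale. In wild-type cells 199 probe sets were higher and 219 lower, against 367 and 97 with equal medians and 252 and 117 with quantile normalization.

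Between genotypes under TNF, 0 of 8 measured member probe sets passed 2-fold, where 5.83% of all were higher and 4.97% lower in the knockout (452 and 385 probe sets, or 323 and 573 with equal medians). Without TNF 0 of 7 passed, where 4.53% were higher and 4.58% lower. The log2 ratios of knockout to wild-type ran from -0.33 for Birc3 to 0.54 for Birc5 under TNF (0.34 with equal medians) and from -0.41 for Xiap to 0.26 for Birc2 without it. In the additive limma fit 0 of 9 passed for the knockout effect, where 10.2% of all measured probe sets rose and 9.19% fell. The unadjusted limma p-values of the members were 0.116 and above, and 7 of the 9 effects lay between the quartiles of all probe sets (-0.23 and 0.30).

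The difference of the TNF response, knockout minus wild-type, was under 2-fold for all 9 measured probe sets, where 2.69% of all were larger and 1.23% smaller (221 and 101 probe sets, or 124 and 204 with equal medians and 145 and 146 with quantile normalization). It ran from -0.33 for 104102_at of Htra2 and for Birc3 to 0.53 for 161446_r_at of Htra2, and was 0.34 for 93402_i_at of Xiap, 0.47 for Birc5 and 0.41 for Birc6. The median was 0.30 beside 0.05 over all measured probe sets. With equal medians the 4 positive values above were 0.29 for 161446_r_at, 0.11 for 93402_i_at, 0.24 for Birc5 and 0.17 for Birc6, and the median was 0.14 beside -0.16. With 1 array per group this difference has no test.

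Established NF-kB targets showed how large the TNF response was in the same cultures. All 9 genes of this list rose in the limma fit, with a median log2 effect of 2.53, and the Birc3 effect of 2.05 lay within their range of 1.76 to 5.19. At this floor the largest were the chemokine genes Ccl2 (5.19, SE 0.61, adjusted p = 0.0179) and Cxcl1 (3.49, SE 0.37, adjusted p = 0.0115), the adhesion gene Icam1 (3.41, SE 0.23, adjusted p = 0.00235) and Nfkbia (2.60, SE 0.10, adjusted p = 0.000634), which encodes the inhibitor that holds NF-kB in the cytoplasm. The effects of Ccl2 and Cxcl1 average unlike responses. Ccl2 rose 104-fold in knockout and 12.8-fold in wild-type cells, and Cxcl1 rose 6.09-fold and 20.6-fold. The other listed genes differed by less than 2-fold in response. Nfkbia had a signal of 4357 in TNF-treated and 737.6 in unstimulated knockout cells, against 3626 in TNF-treated and 584.8 in unstimulated wild-type cells. The unstimulated Icam1 signals (18.6 in knockout and 21.8 in wild-type cells) were below the floor, and with no floor its effect was 5.61, above the 5.19 of Ccl2. Without the intensity trend 4 of the 9 passed, and Ccl2 (adjusted p = 0.143) and Cxcl1 (0.118) did not.

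Partners of the cIAP proteins at the TNF receptor mostly did not pass the test for TNF. Of 17 listed genes 10 had a probe set with that single symbol and 9 were measured. Only Tnfaip3, which encodes the ubiquitin-editing enzyme A20 and also stands in the NF-kB list, rose with TNF (2.46, SE 0.22, limma adjusted p = 0.00608), and the median TNF effect was 0.11. Tnfaip3 had signals of 461.0 in TNF-treated and 11.2 in unstimulated knockout cells, and of 561.1 in TNF-treated and 12.1 in unstimulated wild-type cells. Both unstimulated signals were below the floor, so the size of the effect is set by it, and with no floor it was 5.45. In the knockout Tab2, an adaptor of the kinase TAK1, rose by 1.03 (SE 0.17, adjusted p = 0.00983) and Cflar, which encodes the caspase-8 inhibitor c-FLIP, by 0.81 (SE 0.22, adjusted p = 0.0475). The Cflar call was lost at the 20th percentile floor (adjusted p = 0.0826), with no floor (0.0657) and with the offset (0.120), and the Tab2 call without the intensity trend (0.0519). Tnfrsf1b, the gene of TNF receptor 2, had a knockout effect of -1.26 (SE 0.21, adjusted p = 0.00925), with signals of 236.8 and 173.1 in TNF-treated and unstimulated knockout cells, against 560.9 and 420.4 in the corresponding wild-type cells.

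**Figure D4:**
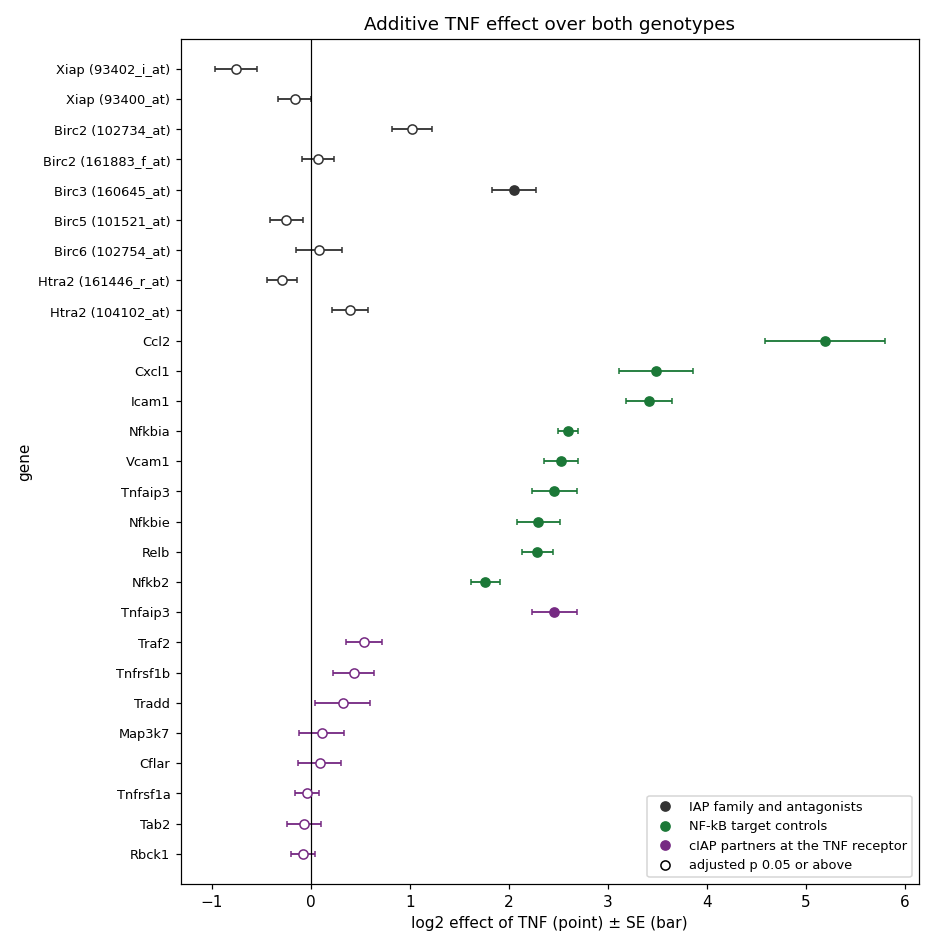
Additive TNF effect over both genotypes (log2, horizontal axis) with its SE for the measured IAP and antagonist probe sets, the NF-kB target controls and the cIAP partners. Filled points passed an adjusted p of 0.05: Birc3 at 2.05, all 9 NF-kB targets and, among the partners, Tnfaip3.

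The caspase and apoptosome genes that XIAP and its antagonists act on showed no TNF response that passed the test. Of 6 listed genes 4 had a probe set with that single symbol and were above the floor throughout, with a median TNF effect of 0.19. Cycs, which encodes cytochrome c, rose in the knockout by 0.83 (SE 0.22, limma adjusted p = 0.0427), a call that was lost at the 20th percentile floor (adjusted p = 0.0512) and with the offset (0.0759). Apaf1, the apoptosome scaffold, had a knockout effect of 0.59 (SE 0.20, adjusted p = 0.0893), and the initiator caspase genes Casp9 and Casp8 had 0.05 and -0.12.

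Among mitochondrial genes linked to the antagonists, 4 of 7 were measured. Bid, a BH3-domain gene whose product acts upstream of mitochondrial release, rose with TNF by 2.08 (SE 0.14, limma adjusted p = 0.00235) and had a knockout effect of -0.36 (SE 0.14, adjusted p = 0.127). The rhomboid protease gene Parl had a TNF effect of 0.19, the pore-forming Bak1 had -0.02 and Hax1, a partner of HTRA2, had 0.00. Of 8 listed IAP relatives and regulators only Septin4 had a probe set with that single symbol, with signals of 63.6 and 93.5 in TNF-treated and unstimulated knockout cells and of 32.2 and 80.8 in the corresponding wild-type cells.

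The probe sets with the pattern most like that of a member were found by the distance between their floored log2 signals over the 4 arrays, each centred on its own mean, among 7452 or 7453 candidates. Nearest to Birc3 were Nfkb2 (distance 0.29), an NF-kB subunit gene, the AP-1 gene Fosl1 (0.32), Tnip1 (0.34), whose product binds A20, Bid (0.35) and the class I histocompatibility gene H2-D1 (0.36). Nfkb2 had signals of 1414 and 465.7 in TNF-treated and unstimulated knockout cells, and of 1720 and 453.1 in the corresponding wild-type cells. Nearest to Birc2 were the amino acid transporter gene Slc7a2 (0.13), the cytolinker gene Plec (0.16), the peptide transporter gene Tap2 (0.17), Papss2 (0.17) and Ak4 (0.18). Nearest to Birc5 were Sspo (0.03), Ltc4s (0.03), Foxred1 (0.04), Znrf4 (0.04) and Col9a3 (0.05). These are descriptions over 4 arrays, and for Birc3 they rest on unstimulated signals set to the floor. Ak4 in unstimulated wild-type cells (79.0) and Ltc4s in TNF-treated wild-type cells (91.3) were also set to the floor. The 5 genes nearest to Birc5 were all lowest on the TNF-treated wild-type array, which has the lowest median signal. The part of that lower median in their likeness was not tested.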

How the data were processed

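Total RNA of 4 fibroblast cultures was profiled on Affymetrix U74Av2 arrays. The deposited values are intensities on a linear scale, which the authors computed with MAS5 (per the submitters' processing notes, which name no version). All 4 columns have a trimmed mean of 500.3 with 2% of probe sets left out at each end, and rescaling to it changed nothing at this precision. Titles of the samples gave the groups. The 66 control probe sets were left out. Gene symbols came from the platform annotation, updated by Entrez identifier through the RefSeq gene table (GRCm38.p6), and 396 probe sets with several symbols were not named.

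Signals were raised to the floor and converted to log2, and called 2-fold at 1 on the log2 scale. Where 1 of the arrays was at the floor the ratio is a bound. The additive fit used limma 3.58.1 in R 4.3.3 (lmFit, eBayes with intensity trend, two-sided, Benjamini-Hochberg over all measured probe sets, threshold 0.05), with 5.37 prior degrees of freedom. It was also run on simulated data with the same noise for every probe set and no genotype effect or genotype-by-TNF difference. Because the arrays here differ in these respects, that run cannot show how far the p-values hold. A gene on a list was represented by its brightest probe set. Named were all member probe sets, up to 4 genes per list by the size of the TNF or knockout effect, and the 5 nearest patterns of Birc2, Birc3 and Birc5. The members and lists were chosen with earlier results of these data known. Alternatives were quantile normalization, equal medians, no rescaling, a floor at the 20th percentile, no floor, an offset of 50, no intensity trend, and 1 probe set per gene.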

Additional observations from a re-analysis of the deposited data

Results flagged for a closer look

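Of the member probe sets measured in both genotypes, that of Birc6 was the one whose TNF response had opposite signs on floored signals. On the log2 scale TNF-treated minus unstimulated cells gave 0.29 in knockout and -0.12 in wild-type cells, from 1 array each. The difference was not tested, and the wild-type value turned positive under quantile normalization and equal medians. With no floor 161883_f_at of Birc2, which was dimmer than the floor in wild-type cells, had a ratio of 0.16 in knockout cells and a difference of response of 0.75, which puts its wild-type ratio below 0.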

How the results depend on the processing

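The labels carry no replicate numbers, so no fit with a replicate block was made, and the additive fit joins the arrays only by genotype and treatment. Leaving out a sample would empty its group. Of 411 member values under the alternatives, 394 kept their direction and side of the threshold. Many of these ratios and effects could not move. The 394 include 59 with no rescaling, which changed nothing at this precision, and 41 with 1 probe set per gene, which reuse the same log2 signals. A lower or absent floor also leaves the ratios of probe sets above it on all arrays as they were. Birc2 (102734_at) in wild-type cells fell short of 2-fold with the offset (0.97), and passed the additive test for TNF under quantile normalization and equal medians. Birc3 lost that test without the intensity trend. Under TNF, 161883_f_at of Birc2 was 1.00 higher in knockout than wild-type cells with the lower floor and with none. Signs turned for 11 values, all short of 2-fold: with equal medians Birc5 (0.037) and 161446_r_at of Htra2 (0.023) with TNF in knockout cells, and Birc2 between genotypes under TNF (-0.14); Birc6 with TNF in wild-type cells (0.16, or 0.072 with quantile normalization); the Birc3 difference of response with the lower floor (0.28), no floor (0.28) and the offset (0.055); and the TNF effect of 161883_f_at with the lower floor (-0.21), no floor (-0.21) and the offset (-0.11). The cause was not tested.

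Counts over all probe sets moved more, and a lower or absent floor also admits more probe sets. At the 20th percentile floor 283 were higher and 265 lower with TNF in knockout cells, 345 and 1012 in wild-type cells, 1063 and 613 between genotypes under TNF, 666 and 757 without TNF, and 987 and 362 for the difference of response. With no floor these were 547 and 766, 609 and 1877, 1747 and 1004, 1025 and 1137, and 1811 and 816. Quantile normalization left 117 lower with TNF in wild-type cells and 145 with a larger response, and equal medians gave 367 higher and 97 lower in wild-type cells and 124 larger and 204 smaller responses. In the additive fit 89 rose and 7 fell with TNF, against 143 and 34 with quantile normalization and 59 and 3 with the offset. With equal medians, where the prior degrees of freedom were infinite, 389 rose and 104 fell. Without the trend the TNF counts were 15 and 0. Beside that 0, limma without the trend gave 641 lower probe sets at an unadjusted p below 0.05. For the knockout effect 841 rose and 756 fell, against 562 and 488 without the trend and 825 and 1034 with equal medians. Ratios of probe sets near the floor, among them all 3 of Xiap and the unstimulated Birc3 signals, are limited by signal over background.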
